A study of Mus musculus with 96 samples.

Results

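Immediate early genes are genes whose transcripts rise within minutes of a stimulus, without new protein synthesis, and fall again soon after. This account follows 9 of them in the mouse heart: Fos, Fosb, Jun, Junb, Egr1, Nr4a1, Ier2, Btg2 and Zfp36. They were taken by symbol from a count table of 55376 genes, all 9 were found there, and all 9 were among the 15629 genes that had enough counts to be tested. The RNA came from ventricles of mice that all carry an inducible, cardiomyocyte-specific Bmal1 knockout allele (genotype label iCSBmal1 KO), so vehicle mice carry it too. Bmal1 (gene symbol Arntl) is the activating factor of the circadian clock, and the study asked what it contributes to differences between female and male hearts over the day. Mice received tamoxifen, which induces the knockout, or vehicle. Females and males of each treatment made 4 groups of 24 libraries. Each group was sampled at 12 circadian times (ct) from ct 18 to ct 62, every 4 h, with 2 libraries at each time, which are called a pair here. No group received tamoxifen without the knockout allele, so effects of the drug and of the loss of Bmal1 cannot be told apart. Title numbers run in separate series for vehicle females, vehicle males and tamoxifen mice, and what they mark is not stated. Sex with vehicle, treatment in either sex and their interaction therefore cannot be told apart from a difference between these series. The labels state neither age, nor the driver of the Cre recombinase, nor whether each library is a separate animal, so the p-values below measure only how far these libraries spread, which may be technical.

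Immediate early genes answer signals that pass through MAP kinases, calcium and cyclic AMP to factors already bound at their promoters, chiefly serum response factor (SRF) with its ternary complex partners and the cyclic AMP response element binding protein CREB. Fos and Fosb proteins pair with Jun and Junb proteins to form AP-1, a dimeric transcription factor. Egr1 is a zinc finger factor, Nr4a1 an orphan nuclear receptor, and Ier2 a small nuclear protein. Btg2 is an antiproliferative protein that promotes removal of poly-A tails, and Zfp36 (tristetraprolin) binds AU-rich elements and speeds the decay of messenger RNAs, including cytokine mRNAs and its own. In the heart these transcripts are known to respond to adrenergic drive and to stretch.

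The libraries held 8944955 to 20596194 counts. Cardiomyocyte markers (Myh6, Tnnt2, Ttn and 4 others) summed to between 29626 and 51249 CPM in every library. CPM are a gene's counts scaled to a common library total, and levels below are CPM after TMM, a normalisation between libraries. Arntl ranged from 1.01 to 55.7 CPM in vehicle females and from 1.31 to 44.6 CPM in vehicle males, against 2.79 to 29.3 CPM in tamoxifen females and 1.31 to 32.4 CPM in tamoxifen males. These counts cover the whole gene, deleted or not, and so check the labels only in part. The library titled Tam_F_ct54_559 held 0.248 CPM of Xist and 10.3 CPM of the Y-linked Ddx3y, which goes against its female label. Tamoxifen male libraries held 127 to 200 CPM of Ddx3y, so it was unlike them as well. The same library held 662 CPM of the atrial gene Myl7. In all, 13 libraries exceeded 20 CPM of Myl7. In 10 vehicle male libraries the share of counts in genes of the annotation class TEC (transcribed regions awaiting experimental support) was 0.123% to 0.189%, where no other library exceeded 0.111%. The tests of levels and rhythms were also run without each of these sets of libraries, and calls of the 9 genes that then changed are given beside the results. Pair scatter (below) was not run without the libraries high in Myl7.

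RefSeq promoter sequences on GRCm38.p6 were searched for 7 of the 9 genes. Ier2 had no entry, and Egr1 was left out of the search. The motif counts below therefore say nothing about Ier2 or Egr1. Below are the 250 bases before the transcription start of 4 of them: Fos, Nr4a1 and Btg2, whose levels rose and fell together between libraries, and Jun, whose level did not follow theirs. Capitals mark TGACG, the core of the cyclic AMP response element, on either strand (on the opposite strand it reads CGTCA), or the full palindrome TGACGTCA.
Fos (chr12:85473640-85473889, plus strand): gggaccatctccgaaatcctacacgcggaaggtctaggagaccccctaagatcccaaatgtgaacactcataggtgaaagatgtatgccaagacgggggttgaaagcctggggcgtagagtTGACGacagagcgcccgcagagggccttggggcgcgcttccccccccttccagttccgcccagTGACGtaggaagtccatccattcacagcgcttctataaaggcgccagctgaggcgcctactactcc
Nr4a1 (chr15:101266596-101266845, plus strand, within the longer gene span of GENCODE): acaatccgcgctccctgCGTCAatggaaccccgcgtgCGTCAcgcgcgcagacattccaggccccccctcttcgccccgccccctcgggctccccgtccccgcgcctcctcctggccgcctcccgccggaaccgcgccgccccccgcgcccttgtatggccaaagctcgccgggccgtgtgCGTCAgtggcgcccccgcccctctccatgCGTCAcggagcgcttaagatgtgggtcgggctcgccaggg
Btg2 (chr1:134079156-134079405, minus strand): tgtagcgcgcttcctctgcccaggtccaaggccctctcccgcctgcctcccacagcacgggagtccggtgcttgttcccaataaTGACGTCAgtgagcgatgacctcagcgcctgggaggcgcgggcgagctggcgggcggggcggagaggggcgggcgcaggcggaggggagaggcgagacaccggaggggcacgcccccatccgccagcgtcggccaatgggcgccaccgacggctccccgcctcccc
Jun (chr4:95052223-95052472, minus strand): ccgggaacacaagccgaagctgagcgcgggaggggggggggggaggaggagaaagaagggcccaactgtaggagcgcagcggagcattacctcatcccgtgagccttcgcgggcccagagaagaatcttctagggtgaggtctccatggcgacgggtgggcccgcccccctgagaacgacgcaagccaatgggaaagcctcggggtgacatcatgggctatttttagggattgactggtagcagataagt
TGACG occurred in 5 of the 7 windows (Fos, Fosb, Junb, Nr4a1 and Btg2) and in 17.8% of the 32851 windows of the same length in the table. Nr4a1 held it 4 times and Fos 2 times. Jun and Zfp36 held none, but Zfp36 moved with the other 8 genes within pairs (correlation 0.73, described below). That was closer than Fosb (0.62), which held TGACG. Whether the motif goes with shared movement was not tested. The full TGACGTCA, which contains TGACG on both strands, occurred in Btg2 alone, and in 1.55% of all windows. A CArG box, the SRF motif, occurred in Zfp36 alone of the 7, and in 1.47% of all windows. Neither the AP-1 motif TGANTCA (6.75% of windows) nor CACGTG, the E-box of CLOCK and BMAL1 (6.02% of windows), was found in any of the 7. Both strands were searched. A match is a string of letters, not evidence of binding, and these windows hold none of the regulatory sequence further upstream or within the gene.

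The genes span a wide range of levels. Per kilobase of merged exon, Jun (chromosome 4, 95049034 to 95052222, GENCODE M21 on GRCm38) was highest in vehicle females with 25.1 ± 6.61 CPM per kb (SD, n = 24). Btg2 (chromosome 1, 134075170 to 134079120) followed with 15.8 ± 2.86 CPM per kb. Ier2 (chromosome 8, 84661331 to 84662852) with 8.11 ± 1.499 and Zfp36 (chromosome 7, 28376784 to 28380253) with 7.64 ± 0.927 CPM per kb came next and differed by less than their SD. Junb (chromosome 8, 84974484 to 84978718) had 5.47 ± 1.07 CPM per kb. Egr1 (chromosome 18, 34859823 to 34864984) with 4.22 ± 2.28 and Nr4a1 (chromosome 15, 101254269 to 101274795) with 4.01 ± 3.27 CPM per kb could not be told apart by their spread, nor could Junb and Egr1. Fos (chromosome 12, 85473890 to 85477273) had 1.72 ± 1.35 CPM per kb and Fosb (chromosome 7, 19302696 to 19310051) 0.103 ± 0.0570. Of the 4 AP-1 genes ranked here, Jun and Junb were thus the higher in level, and Fos and Fosb the lower. Other AP-1 genes were not ranked, and among them Fosl2 had a mean of 33.4 CPM over all libraries, before division by exon length. Exons of Jun share 232 bases with Junos, those of Junb 173 bases with Prdx2 and those of Zfp36 125 bases with Gm44710, each on the opposite strand. Whether the counting used strand is not stated, so reads in those stretches cannot be assigned with certainty.

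Fos and Nr4a1 varied most for their level in each of the 4 groups, with coefficients of variation of 78.1% to 104% for Fos and 79.1% to 114% for Nr4a1. Fos in females ran from 0.884 to 16.4 CPM with vehicle (median 3.53) and from 1.55 to 19.2 CPM with tamoxifen (median 4.48). In males Fos ran from 0.830 to 27.9 CPM with vehicle (median 4.19) and from 0.629 to 35.7 CPM with tamoxifen (median 5.43). The groups overlapped over nearly their whole range, and a single group spanned as much as 56.9-fold. Nr4a1 in females ran from 6.17 to 63.4 CPM with vehicle (median 10.8) and from 5.23 to 60.6 CPM with tamoxifen (median 12.9), and in males from 4.98 to 124 CPM with vehicle (median 14.4) and from 4.71 to 115 CPM with tamoxifen (median 14.1). Egr1 in females ran from 7.66 to 49.1 CPM with vehicle (median 16.5) and from 7.54 to 70.2 CPM with tamoxifen (median 20.8), and in males from 8.93 to 94.1 CPM with vehicle (median 22.8) and from 7.19 to 125 CPM with tamoxifen (median 22.2). Both are transcription factors with lower limits that were alike in all groups and upper limits that were highest in males of either treatment. Jun covered a narrower range. In females it held 51.0 to 114 CPM with vehicle (median 80.8) and 36.5 to 107 CPM with tamoxifen (median 83.8), and in males 51.0 to 102 CPM with vehicle (median 69.0) and 52.7 to 126 CPM with tamoxifen (median 79.1).

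The other 5 genes lay between these extremes. Ier2 had a median of 18.9 CPM in vehicle males (9.56 to 35.6) against 11.96 CPM in vehicle females (8.38 to 18.3), and with tamoxifen 12.7 CPM in males (9.20 to 25.03) and 12.995 CPM in females (8.36 to 20.8). Of the 24 vehicle male libraries, 14 lay above the highest vehicle female library. Junb, an AP-1 subunit that can restrain Jun, had medians of 12.1 CPM in females and 15.7 CPM in males with vehicle and 11.7 CPM in both sexes with tamoxifen. Its highest libraries held 19.5 and 36.4 CPM with vehicle and 26.3 and 38.7 CPM with tamoxifen, females first, and 8 of the 24 vehicle male libraries lay above every vehicle female library. The 2 genes that act on mRNA decay had medians that barely moved, at 39.2 to 42.5 CPM for Btg2 and 27.1 to 27.4 CPM for Zfp36 across the 4 groups. Their highest libraries were nonetheless male, with 96.6 CPM of Btg2 in vehicle males at ct 30 and 43.8 CPM of Zfp36 in tamoxifen males at ct 38. Fosb rested on 1 to 52 counts per library, with medians of 0.492 to 0.587 CPM, so counting error is a large part of its spread.

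**Figure D1:**
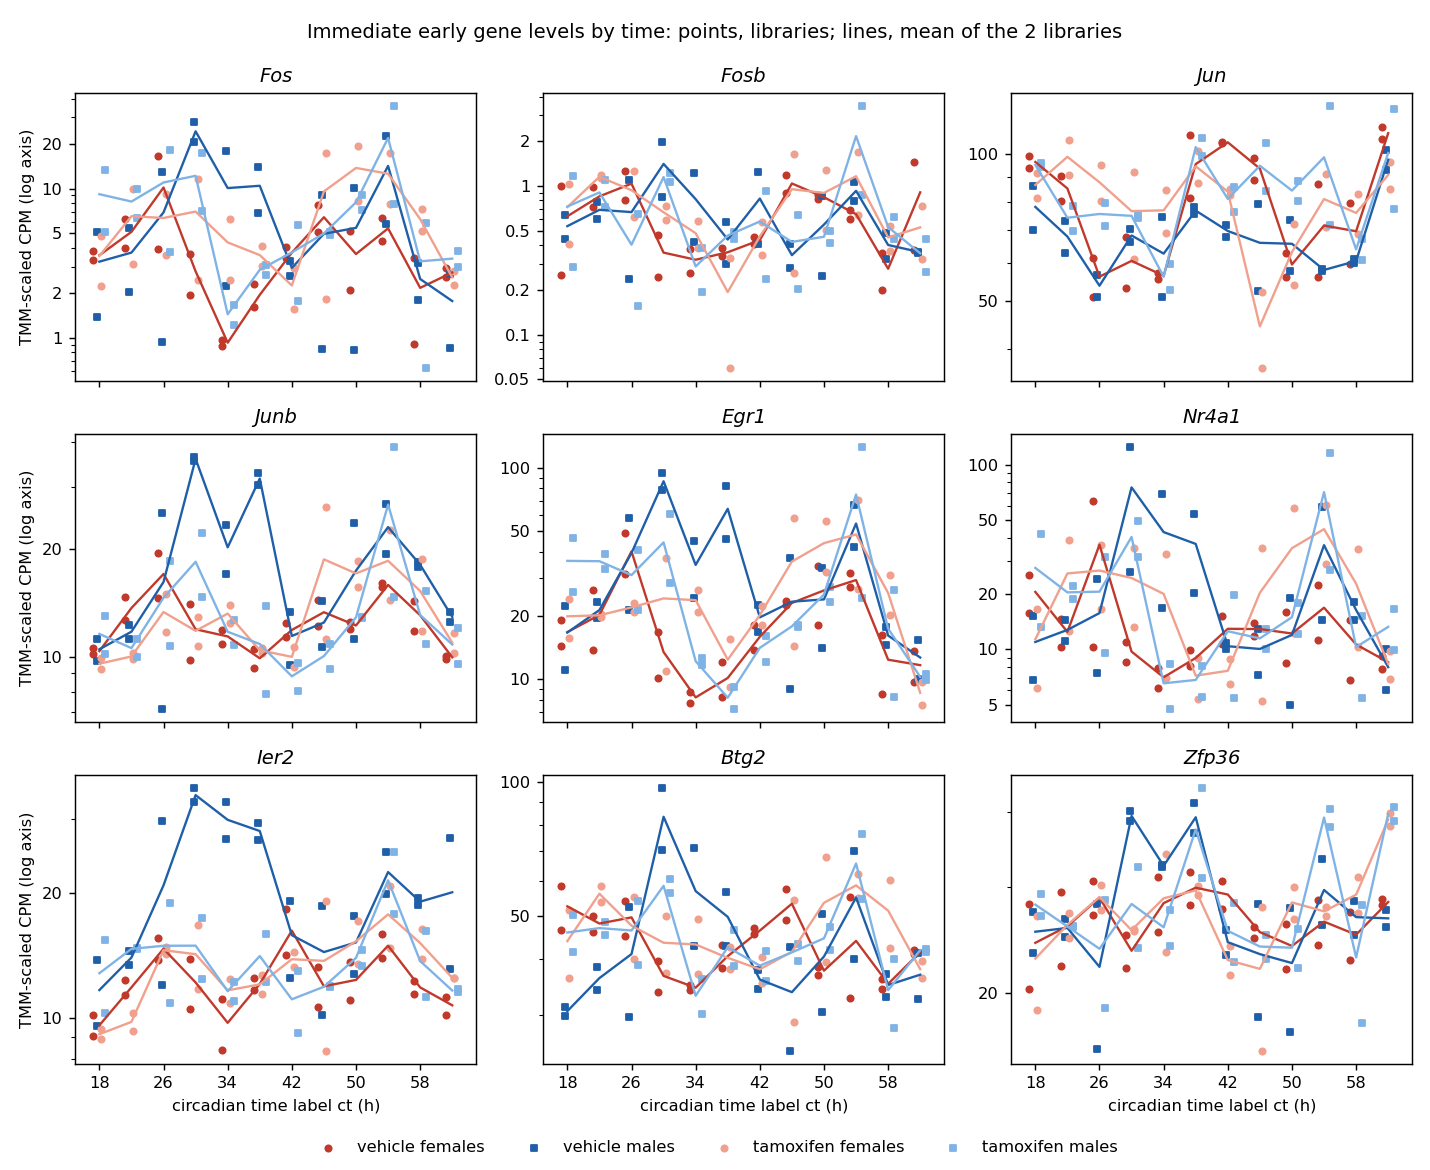
TMM-scaled CPM (log axis) of the 9 genes against circadian time label in h, with a point for each library and a line through the mean of the 2 libraries of a time in each of the 4 groups. Vehicle males stand high at ct 30 to 38 in several genes, and a single tamoxifen male library at ct 54 stands above all others of its group in 7 of the 9 genes.

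A few libraries held most of the extremes. Among the 9 genes, Tam_M_ct54_555 was the highest tamoxifen male library for 7, and Veh_M_ct30_10 the highest vehicle male library for 6. In Tam_M_ct54_555 Fos stood at 35.7 CPM against 7.84 CPM in the other library of that time, Egr1 at 125 against 24.3 CPM and Nr4a1 at 115 against 26.8 CPM. In Veh_M_ct30_10 Nr4a1 stood at 124 CPM against 26.1 CPM in the other library of ct 30, while Fos stood at 27.9 against 20.4 CPM. So the pair at ct 54 differed in all 3 genes, and the pair at ct 30 mainly in Nr4a1. The pair at ct 54 also differed in Arntl, with 18.2 CPM in Tam_M_ct54_555 and 1.31 CPM in Tam_M_ct54_556. Whether this bears on the other differences of that pair was not tested. Tam_F_ct54_559, the library that goes against its label, was the highest tamoxifen female library for Egr1, Nr4a1, Ier2 and Fosb. Tam_F_ct46_601 was the lowest tamoxifen female library for Jun, Nr4a1, Ier2, Btg2 and Zfp36.

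The 2 libraries of a group and time were next compared with each other, as the absolute difference of their log2 CPM (with a prior count of 2) in each of the 48 pairs. Fos had a median difference of 1.10 log2 units, or 2.15-fold, which ranked 10 among the 15629 tested genes. Over all tested genes the median was 0.17 log2 units, or 1.12-fold. The members of 26 of the 48 pairs differed more than 2-fold in Fos, and the widest pair, vehicle males at ct 26, held 0.942 and 12.9 CPM (12.1-fold with the prior count). Counting error alone, taken from raw counts without the prior count, would give a median of about 0.18 log2 units for Fos. Nr4a1 ranked 29 with a median of 0.94 log2 units (1.92-fold), and 23 of its pairs differed more than 2-fold. Its widest pair was tamoxifen females at ct 46, with 35.2 and 5.23 CPM. Egr1 ranked 272 (0.61 log2 units, 1.53-fold, 9 pairs over 2-fold), and 99% of all tested genes had a median under 0.68 log2 units. Fosb ranked 436 with 0.56 log2 units, but counting error alone, again without the prior count, would give 0.51. At the low counts of Fosb the prior count narrows the observed value, so these values are not on the same scale.

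The remaining 5 genes scattered little more than the typical gene. Their medians were 0.27 log2 units for Ier2, 0.25 for Btg2, 0.23 for Junb, 0.19 for Zfp36 and 0.17 for Jun, and Jun ranked 7408, near the middle of all tested genes. In Jun, Btg2 and Zfp36 none of the 48 pairs differed more than 2-fold, whereas 4 pairs did in Junb and 3 in Ier2. The 4 AP-1 genes therefore ran from the top to the middle of the ranking.

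**Figure D2:**
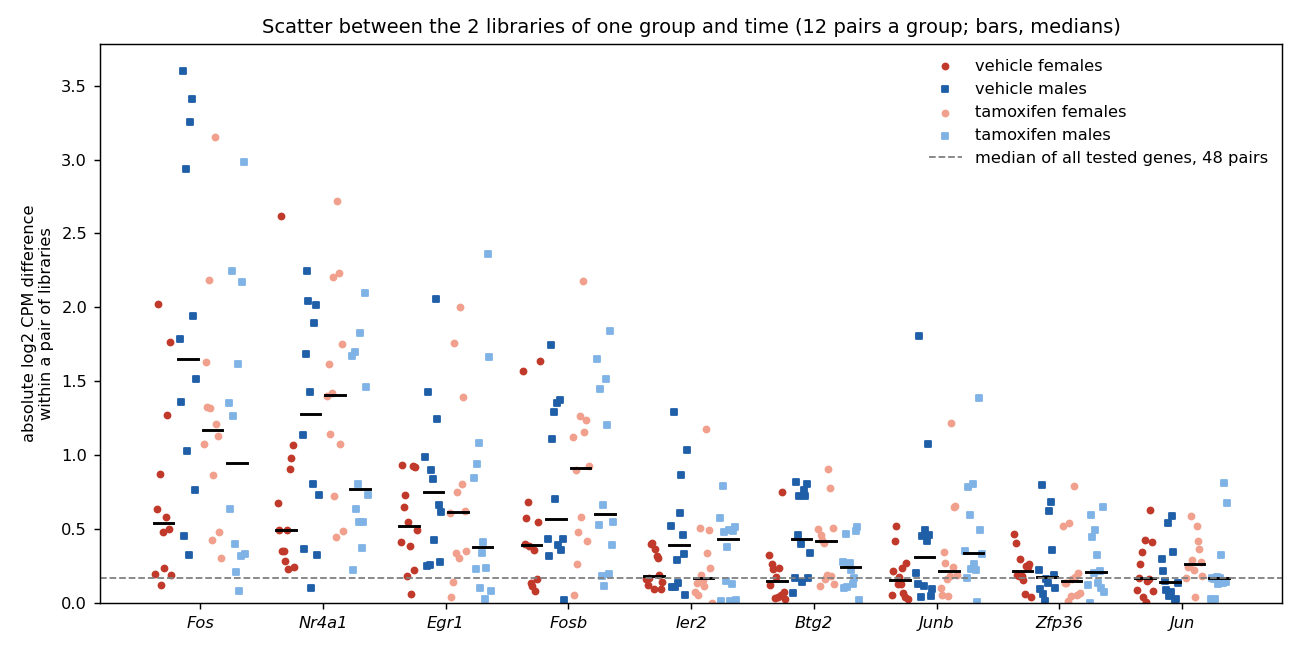
Absolute log2 CPM difference between the 2 libraries of each group and time for the 9 genes, ordered by their median over 48 pairs, with 12 points and a black median bar for each group and a dashed line at the median of all tested genes (0.17). Fos and Nr4a1 stand far above the dashed line in all 4 groups, and Jun and Zfp36 lie close to it.

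The width of the scatter differed between groups for Fos. With vehicle its median pair difference was 0.54 log2 units in females and 1.65 in males, and 3 and 9 of the 12 pairs differed more than 2-fold. With tamoxifen the medians were 1.17 in females and 0.95 in males, with 8 and 6 such pairs. Nr4a1 had medians of 0.49 and 1.28 log2 units with vehicle and 1.41 and 0.77 with tamoxifen, females first, so that vehicle females were the narrowest group in both genes. The square roots of the differences were tested with limma over all genes. Female minus male in vehicle hearts passed for 2 of the 9 genes, against 17.9% of all tested genes, and 17.8% were narrower in females. Those 2 were Fos (-0.50 ± 0.16 on the square root scale, adjusted p = 0.0206) and Btg2 (-0.25 ± 0.08, adjusted p = 0.0302), both narrower in females. The median over all tested genes was itself -0.09, and the typical gene had a median pair difference of 0.25 log2 units in vehicle males against 0.14 in vehicle females. No gene of the 9 passed for tamoxifen minus vehicle in males (9.36% of all tested genes passed), for tamoxifen minus vehicle in females (0.0128%) or for female minus male in tamoxifen hearts (0.0128%). At an unadjusted p under 0.05 there were 2, 2 and 0 of the 9 in that order. The Fos call ended without ct 34 (-0.42, adjusted p = 0.0676) or ct 62 (-0.48, adjusted p = 0.0538), and the Btg2 call without any of ct 26, 34, 38, 50 or 62 (-0.25 to -0.21). Leaving out pairs that hold any of the 10 TEC-high vehicle male libraries, a check chosen after seeing the data, left 4 vehicle male pairs, and then neither passed (Fos -0.75, adjusted p = 0.543, Btg2 -0.20, adjusted p = 0.894). The share of all tested genes then fell to 0.0128%.

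The differences within pairs were shared by 8 of the 9 genes. When Fos was higher in one library of a pair, Egr1, Btg2 and Nr4a1 were usually higher in it too. The correlation of signed differences over the 48 pairs (taken about 0, since which library comes first is arbitrary) had a median of 0.61 over the 36 combinations of 2 genes, and 27 of the 36 exceeded 0.5. The highest were Fos with Egr1 (0.84), Nr4a1 with Btg2 (0.84) and Fos with Btg2 (0.82), and Junb was most like Ier2 (0.79). Fos followed the mean of the other 8 most closely (0.90) and Btg2 came second (0.85), although Btg2 moved by a median of only 1.19-fold within pairs.  Jun was the exception, with 0.17 against the other 8 and values from -0.10 (with Fosb) to 0.31 (with Btg2), and by that measure it ranked 2931 when placed among the genes outside the set, where the other members ranked 1 to 3. In 10 of the 48 pairs all 9 genes were higher in the same library, 4 of them in vehicle males, 4 in tamoxifen females, 2 in tamoxifen males and 0 in vehicle females. These correlations describe 48 pairs that share library preparation and scaling, and they carry no test.

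**Figure D3:**
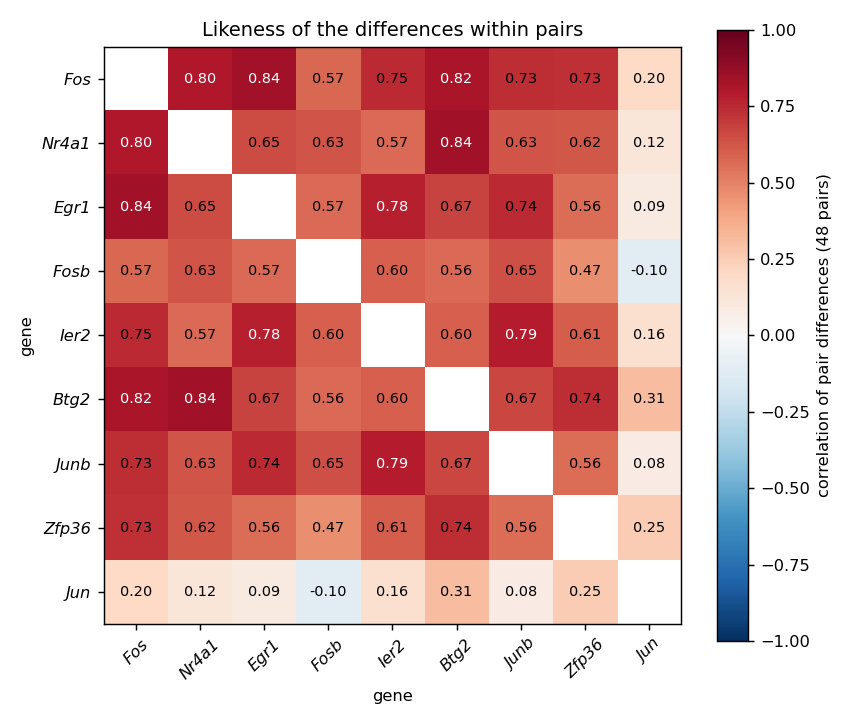
Correlation over 48 pairs of the signed log2 difference between the 2 libraries of a pair, for each combination of the 9 genes (both axes, ordered by scatter; colour and number give the correlation). Values among 8 genes lie from 0.47 to 0.84, and the row of Jun lies from -0.10 to 0.31.

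Genes outside the set that moved most like it were named by their correlation with the mean of the 9 standardised differences. The closest was Dusp1 (0.87, same side in 39 of 48 pairs), a phosphatase that switches off MAP kinases and is itself an immediate early gene. Socs3 (0.64), an inhibitor of cytokine signalling, and Nr4a2 (0.63), a relative of Nr4a1, followed. The next were Il1b (0.59) and Cxcl1 (0.54), an inflammatory cytokine and a chemokine, with Nmt1 (0.54), Grasp (0.53), Map3k7cl (0.53), Puf60 (0.53) and Apold1 (0.53). Of all tested genes outside the set, 19 exceeded 0.5, and the central 90% of tested genes lay between -0.30 and 0.28. The summed pattern of 52 other immediate early genes had 0.71. Library total had 0.01, the share of TEC counts 0.21 and heat shock genes 0.16. Among cell type marker lists, endothelial markers had 0.33, and cardiomyocyte, fibroblast, mural, macrophage, neutrophil, lymphocyte, erythroid, platelet and atrial markers lay between -0.21 and 0.18. What differed between the libraries of a pair was not tested.

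Levels averaged over the day were compared in 1 model with a mean and a 24 h rhythm for each group. With tamoxifen in females, all 9 genes were fitted as higher, but 0 of the 9 passed the test (edgeR quasi-likelihood, Benjamini-Hochberg adjusted p under 0.05 over all tested genes), against 27.5% of all tested genes (15.2% higher and 12.3% lower). At an unadjusted p under 0.05 there were 2, and the DESeq2 Wald test also called 0. Fos differed by 0.69 ± 0.30 log2 (SE; adjusted p = 0.0760, higher at 7 of 12 times), Egr1 by 0.46 ± 0.22 (adjusted p = 0.107, higher at 10 of 12 times) and Nr4a1 by 0.47 ± 0.27 (adjusted p = 0.194, higher at 7 of 12 times). The other 6 differences were 0.13 log2 or less. Without ct 26, Fos (0.84, adjusted p = 0.0282) and Egr1 (0.57, adjusted p = 0.0494) passed.

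With tamoxifen in males, 3 of the 9 passed, 1 higher and 2 lower, where 70.0% of all tested genes passed (32.2% higher and 37.8% lower). Jun rose by 0.29 ± 0.08 log2 (adjusted p = 0.000916, higher at 11 of 12 times). Ier2 fell by 0.52 ± 0.09 log2 (adjusted p = 1.19e-06, lower at 10 of 12 times), and Junb fell by 0.45 ± 0.11 log2 (adjusted p = 0.000320, lower at 9 of 12 times). Among the 6 that did not pass, Egr1 differed by -0.36 ± 0.21 (adjusted p = 0.121), and it passed without ct 18 (-0.61, adjusted p = 0.0121), without ct 54 (-0.56, adjusted p = 0.0143) and with library size as the only scaling (-0.46). The share of members called was below that of all genes. Without the 10 TEC-high vehicle males, Ier2 no longer passed (-0.24, adjusted p = 0.0572), while Jun and Junb kept their calls, and the share of all tested genes was 42.2%. When tamoxifen libraries were limited to the earlier of their title-number runs (described below), Junb no longer passed (-0.29, adjusted p = 0.0657).

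Vehicle females and males differed in 6 of the 9 genes, 5 lower and 1 higher in females, against 68.3% of all tested genes (36.5% lower and 31.8% higher). The median of the 9 was -0.50 log2, where that of all tested genes was -0.03. Egr1 was lower in females by a log2 difference of -0.87 ± 0.22 (adjusted p = 0.000261, lower at 8 of 12 times), Fos by -0.83 ± 0.30 (adjusted p = 0.0119, lower at 5 of 12 times) and Ier2 by -0.68 ± 0.09 (adjusted p = 1.53e-09, lower at 11 of 12 times). Nr4a1 (-0.61 ± 0.27, adjusted p = 0.0422, 6 of 12 times) and Junb (-0.50 ± 0.11, adjusted p = 7.14e-05, 8 of 12 times) were lower too, and Jun alone was higher (0.20 ± 0.08, adjusted p = 0.0228, 9 of 12 times). The male excess was widest at ct 30 to 38. Egr1 in vehicle males held 78.7 and 94.1 CPM at ct 30, 24.2 and 45.2 at ct 34 and 45.8 and 82.1 at ct 38, where vehicle females held 10.1 and 16.8, 7.66 and 8.71, and 8.19 and 12.1 CPM. At the same hours of the next day (ct 54, 58 and 62) the gap in Egr1 was smaller. At ct 54 vehicle males held 42.2 and 66.8 CPM against 27.2 and 31.7 in vehicle females. At ct 58 the groups overlapped, with 14.5 and 17.6 CPM in males against 8.50 and 16.2 in females. They overlapped at ct 62 too, with 9.96 and 15.3 CPM in males against 9.64 and 13.6 in females. Ier2 held 26.8 to 35.6 CPM in the 6 vehicle male libraries of ct 30 to 38 and 8.38 to 13.9 CPM in the 6 vehicle female ones. Junb in vehicle males held 35.4 and 36.4 CPM at ct 30 and stayed between 17.1 and 32.8 CPM over ct 34 and 38, against 9.30 to 14.1 CPM in the vehicle females of those times. At each of ct 54, 58 and 62, Ier2 and Junb were still higher in both vehicle male libraries than in either female library, but by less. For Zfp36, whose daily mean did not pass, 7 vehicle male libraries lay above the highest vehicle female library (31.8 CPM), and 6 of the 7 came from ct 30 to 38.

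Some of these calls were lost when libraries named above were left out, which also leaves fewer libraries to test. Without the 10 TEC-high vehicle males, which include both of ct 30, both of ct 34 and 1 of ct 38, the differences of Fos (-0.51, adjusted p = 0.249), Nr4a1 (-0.27, adjusted p = 0.515) and Jun (0.20, adjusted p = 0.0973) no longer passed, and Egr1, Junb and Ier2 kept their calls. The share of all tested genes then fell from 68.3% to 46.7%. Without the libraries high in Myl7, the same 3 genes were lost (Fos -0.71, adjusted p = 0.0723, Nr4a1 -0.61, adjusted p = 0.0959, Jun 0.19, adjusted p = 0.0555). Fos was lost without ct 30 (-0.64) or ct 38 (-0.60), and Jun without ct 54 (0.15) or with library size alone (0.16). Nr4a1 was lost without any 1 of ct 22, 30, 34, 38, 42, 46 or 50 (-0.60 to -0.39), without the filter on low counts (-0.56), with one mean for each group and time (-0.55) and with the earlier tamoxifen run only (-0.58). Markers of other cells moved in the same comparison. In vehicle females against males, 7 of 8 endothelial, 3 of 3 neutrophil, 3 of 3 lymphocyte, 5 of 5 erythroid and 4 of 4 platelet markers tested were lower and none higher. Of 9 macrophage markers 5 were lower and 3 higher, of 7 cardiomyocyte markers 3 were lower and 3 higher, of 7 mural markers 3 were lower and 1 higher, of 8 fibroblast markers 1 was lower and 2 higher, and of 3 atrial markers none was lower and 2 were higher. Summed endothelial markers ran from 922 to 1375 CPM in vehicle females and from 946 to 2135 CPM in vehicle males, and summed neutrophil markers from 1.67 to 6.12 and from 2.55 to 62.5 CPM. In tamoxifen minus vehicle males, 8 of 8 endothelial, 4 of 4 platelet, 3 of 3 neutrophil, 3 of 3 lymphocyte, 5 of 9 macrophage, 2 of 5 erythroid and 1 of 8 fibroblast markers were lower and none higher, where 37.8% of all tested genes were lower. Of 7 mural markers 3 were lower and 1 higher, of 7 cardiomyocyte markers 3 were lower and 4 higher, and none of 3 atrial markers passed. Their part in the immediate early gene differences was not tested. In whole ventricle RNA, fewer cells of a type and less RNA per cell cannot be told apart.

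Tamoxifen females and males did not differ past the test in any of the 9 genes, against 7.68% of all tested genes, with fitted differences from -0.19 to 0.04 log2. At an unadjusted p under 0.05 there were also 0, and the DESeq2 Wald test called 0. For Egr1 the difference was -0.06 ± 0.21 log2 and for Ier2 -0.06 ± 0.10. The interaction of sex and tamoxifen, or how far tamoxifen shifted the female minus male difference, passed for 4 of the 9 genes, 3 higher and 1 lower (52.3% of all tested genes passed, 27.0% higher and 25.4% lower). They were Egr1 (0.82 ± 0.30, adjusted p = 0.0191), Ier2 (0.63 ± 0.13, adjusted p = 7.88e-05), Junb (0.53 ± 0.16, adjusted p = 0.00442) and Jun (-0.26 ± 0.11, adjusted p = 0.0434). Fos (0.64 ± 0.41, adjusted p = 0.191) and Nr4a1 (0.53 ± 0.38, adjusted p = 0.243) had similar sizes with wider errors and did not pass. Without the 10 TEC-high vehicle males only Ier2 kept its call among the 4 (Egr1 0.74, adjusted p = 0.0858, Junb 0.42, adjusted p = 0.0526, Jun -0.26, adjusted p = 0.120), and the share of all tested genes fell from 52.3% to 28.6%. The earlier tamoxifen run alone also left only Ier2 (Egr1 0.49, Junb 0.31, Jun -0.21), with 35.1% of all tested genes. Egr1 was lost without any of ct 30, 34, 38 or 46 (0.53 to 0.72) and without libraries high in Myl7 (0.68). Jun was lost without any of ct 18, 38, 42, 46, 50, 54 or 62 (-0.27 to -0.17), without Tam_F_ct54_559 (-0.25), without libraries high in Myl7 (-0.28) and with library size alone (-0.21).

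**Figure D4:**
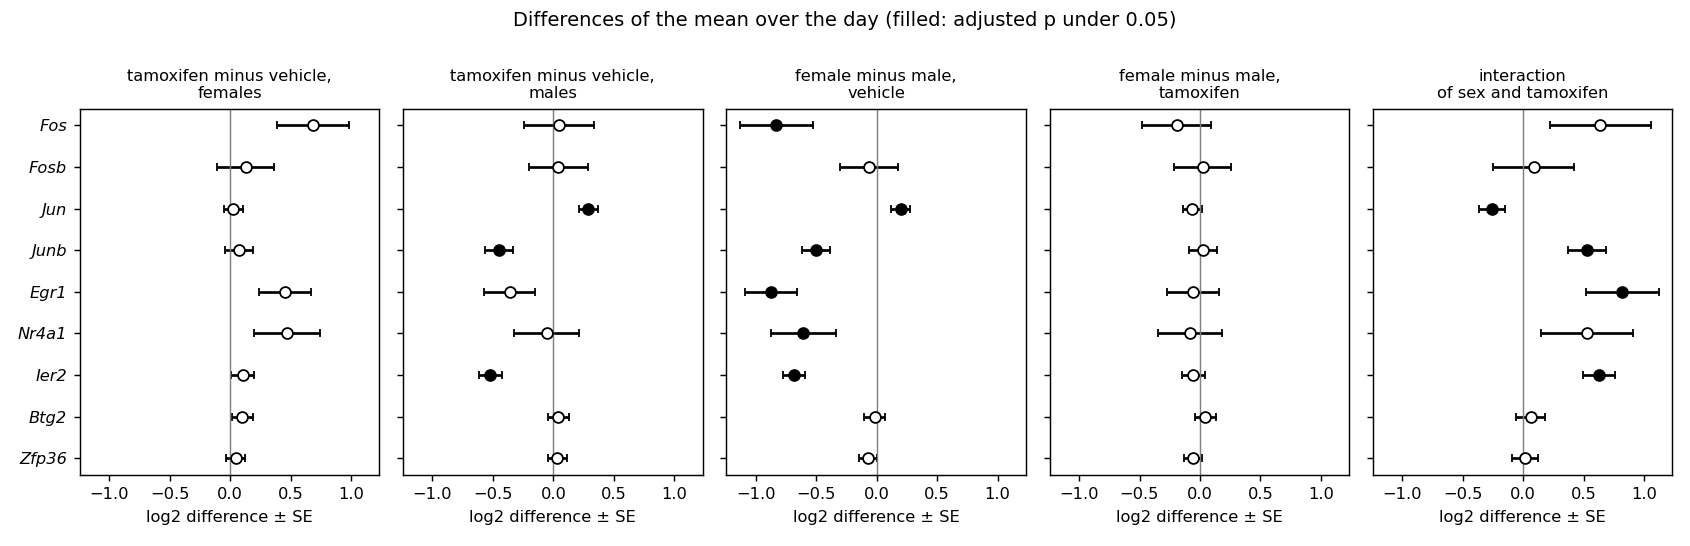
Log2 difference of the mean over the day with its standard error for the 9 genes in the 4 group comparisons and the interaction, filled where the adjusted p is under 0.05. Filled points lie in the panels that involve vehicle males, and the panels of tamoxifen in females and of sex in tamoxifen hearts hold none.

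Over the day, Fos and Egr1 passed the test for a 24 h rhythm in all 4 groups. Amplitude is how far, in log2 units, the fitted 24 h wave rises above its mean. In Fos with vehicle it was 0.96 ± 0.31 in females (adjusted p = 0.0331) and 1.07 ± 0.28 in males (adjusted p = 0.00301), and with tamoxifen 1.01 ± 0.29 in females (adjusted p = 0.0285) and 1.004 ± 0.30 in males (adjusted p = 0.0442). From trough to peak this was a 3.79- to 4.42-fold change. Taken modulo 24 h, the Fos wave peaked at ct 0.0847 in females and ct 6.49 in males with vehicle, and at ct 3.23 and ct 2.59 with tamoxifen. The Egr1 amplitudes with vehicle were 0.81 ± 0.22 in females (adjusted p = 0.00840) and 0.72 ± 0.21 in males (adjusted p = 0.00979), peaking at ct 1.10 and ct 7.02. With tamoxifen they were 0.72 ± 0.21 and 0.90 ± 0.22 (adjusted p = 0.0422 and 0.0133), peaking at ct 3.07 and ct 2.70. Both transcripts were thus highest in the early to middle part of the subjective day. In vehicle females Fos stood at 0.884 and 0.974 CPM at ct 34 and at 3.93 and 16.4 CPM at ct 26. In tamoxifen males it stood at 1.23 and 1.66 CPM at ct 34, and at 7.10 and 17.2 CPM at ct 30.

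Of the 9 genes, 3 passed the rhythm test in vehicle females (Fos, Jun and Egr1; 34.5% of all tested genes passed), 8 in vehicle males (all but Fosb; 55.2%), 3 in tamoxifen females (Fos, Egr1 and Nr4a1; 17.1%) and 3 in tamoxifen males (Fos, Junb and Egr1; 8.03%). Jun peaked at another time of day than Fos. Its amplitude was 0.43 ± 0.08 in vehicle females (adjusted p = 3.92e-05) with a peak at ct 17.1, and the pairs of that group held 93.7 and 99.4 CPM at ct 18, 51.0 and 61.4 at ct 26, 106 and 106 at ct 42, and 56.1 and 62.9 at ct 50. In vehicle males the Jun amplitude was 0.23 ± 0.08 (adjusted p = 0.0346, peak at ct 15.7), and in tamoxifen females (0.14 ± 0.08, adjusted p = 0.439) and tamoxifen males (0.14 ± 0.08, adjusted p = 0.516) it did not pass. Nr4a1 had amplitudes of 1.14 ± 0.26 in vehicle males (adjusted p = 0.000819) and 1.10 ± 0.27 in tamoxifen females (adjusted p = 0.00913), peaking at ct 8.03 and ct 3.85. In vehicle males the peaks of the 7 genes other than Jun that passed lay between ct 6.49 and ct 10.2. Mean levels of Egr1 and Junb in that group were higher at each of ct 30, 34 and 38 than 24 h later (ct 54, 58 and 62). The fitted wave averages over both days.

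**Figure D5:**
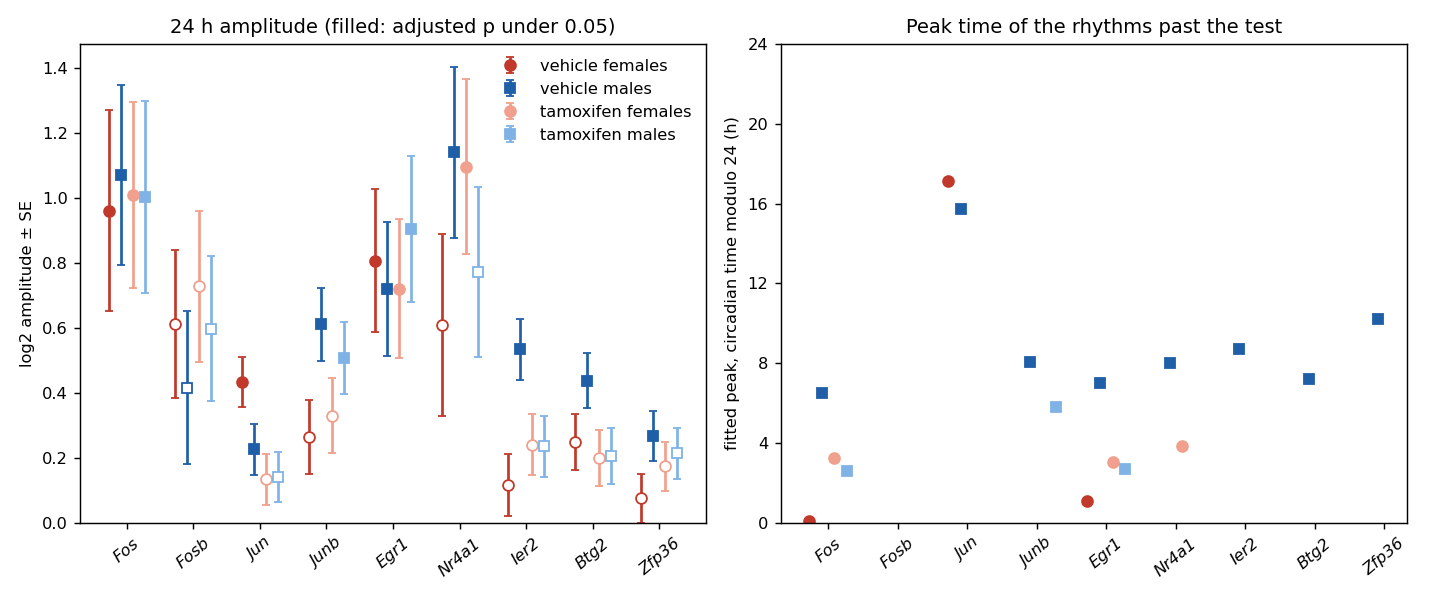
Left, 24 h amplitude (log2 units, with standard error) of the 9 genes in the 4 groups, filled where the adjusted p is under 0.05; right, fitted peak time (circadian time modulo 24 h) of the rhythms past the test. Jun peaks at ct 15.7 to 17.1, and the peaks of the other genes lie between ct 0.0847 and ct 10.2.

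Most rhythm calls of vehicle males ended without the 10 TEC-high libraries, which left 14 libraries of that group at 10 times. Then 1 of the 9 genes passed, Junb, where 8 had passed with all libraries. The share of all tested genes fell from 55.2% to 18.6%, so the loss was not limited to these genes. Whether the calls ended through these libraries or through the smaller number was not tested. The amplitudes without the 10 libraries were 0.91 for Fos (adjusted p = 0.146), 0.84 for Nr4a1 (0.148 as adjusted p), 0.68 for Egr1 (adjusted p = 0.216), 0.33 for Ier2 (adjusted p = 0.108), 0.32 for Btg2 (adjusted p = 0.0790), 0.24 for Jun (adjusted p = 0.215) and 0.21 for Zfp36 (adjusted p = 0.273). In the same group Fos (0.78) and Egr1 (0.48) lost their calls without ct 30, Egr1 also without libraries high in Myl7 (0.67), and Jun without any of ct 18, 26, 38 or 62 (0.16 to 0.24) or without libraries high in Myl7 (0.22). In vehicle females Fos was lost without any of ct 26, 34, 38 or 42 (0.79 to 0.97) and Egr1 without ct 26 (0.70). In tamoxifen females, leaving out Tam_F_ct54_559 ended the calls of Fos (0.92, adjusted p = 0.0651) and Egr1 (0.61, adjusted p = 0.121), and Nr4a1 kept its call. Fos was also lost there without any of ct 18, 38, 42, 50, 54 or 62 (0.93 to 1.07), and Egr1 without any of ct 22, 38, 42, 50, 54 or 62 (0.59 to 0.77). In tamoxifen males Fos was lost without any of ct 22, 30, 34, 38, 42, 54, 58 or 62 (0.87 to 1.01), Egr1 without ct 38, 54 or 62 (0.74 to 0.82) and Junb without ct 54 (0.36). With the earlier tamoxifen run only, 0 of the 9 passed in tamoxifen males and 1, Nr4a1, in tamoxifen females, where 1.31% and 10.3% of all tested genes passed. Without libraries high in Myl7, Fos (0.91) and Egr1 (0.61) were lost in tamoxifen females and Fos (1.01) in tamoxifen males. Among tamoxifen females that set holds Tam_F_ct54_559 alone, the library already left out above, so this is not a separate loss there. Without the filter on low counts, Egr1 (0.72) was lost in tamoxifen females and Fos (1.01) in tamoxifen males. Other rhythms were gained by leaving out a time, namely Junb in tamoxifen females without ct 26, 30 or 46 (0.37 to 0.42), Nr4a1 in tamoxifen males without ct 18 (1.06), Zfp36 in tamoxifen males without ct 58 (0.31), and in vehicle females Btg2 without ct 50 or 54 (0.27 and 0.30) and Fosb without ct 62 (0.90). Leaving out the 10 TEC-high vehicle males also gained rhythms in other groups, namely Fosb (0.73, adjusted p = 0.0403) and Junb (0.34, adjusted p = 0.0460) in tamoxifen females and Btg2 (0.25, adjusted p = 0.0263) in vehicle females. The share of all tested genes then rose from 17.1% to 24.5% in tamoxifen females and from 34.5% to 43.4% in vehicle females.

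Tamoxifen was compared with vehicle for the rhythm itself, by a joint test of the changes in the cosine and sine terms. The size given is the amplitude of the difference between the fitted waves, so it holds changes of both amplitude and phase. In females 0 of the 9 passed, against 0.237% of all tested genes, and 2 (Jun and Btg2) had an unadjusted p under 0.05. In Jun it was 0.35 ± 0.11 log2 (adjusted p = 0.188). In males 1 of the 9 passed, against 20.7% of all tested genes. That was Ier2 (0.45 ± 0.13, adjusted p = 0.0306), whose amplitude was 0.53 ± 0.09 in vehicle males (adjusted p = 1.41e-05) and 0.24 ± 0.09 in tamoxifen males (adjusted p = 0.227). The Ier2 call ended without the 10 TEC-high vehicle males (0.30, adjusted p = 0.328), without any of ct 18, 22, 30, 34, 38, 50 or 62 (0.35 to 0.45), without the filter on low counts (0.43), without libraries high in Myl7 (0.42) and with the earlier tamoxifen run only (0.33). Without ct 54, Egr1 (0.95), Nr4a1 (1.29) and Btg2 (0.46) passed as well. Whether the 2 sexes differed in this effect was not tested.

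A test for any difference over the 12 times, which assumes no waveform, passed for 2 of the 9 genes in vehicle females (Jun and Egr1; 24.5% of all tested genes), 8 in vehicle males (all but Fosb; 61.9%), 1 in tamoxifen females (Jun; 8.06%) and 4 in tamoxifen males (Jun, Junb, Egr1 and Zfp36; 4.62%). Jun was the only one of the 9 to pass in all 4 groups (adjusted p = 0.000108, 0.0371, 0.0117 and 0.0420), while Fos passed in vehicle males alone (adjusted p = 0.0141). So Fos, with the larger swing, passed this test less often than Jun, with the narrower pairs. In tamoxifen females Jun stood at 36.5 and 52.4 CPM at ct 46 against 90.6 and 107 CPM at ct 22, though ct 46 and ct 22 are the same time of the 24 h day. Both ct 46 libraries belong to the later title-number run and both ct 22 libraries to the earlier, so day and run cannot be told apart there. In tamoxifen males Jun was lost with library size alone (adjusted p = 0.0962).

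The test over the times was run again without the libraries in doubt, a check chosen after seeing the data. Without the 10 TEC-high males, vehicle males kept 14 libraries at 10 times, only 4 of them with 2 libraries. Of the 8 genes that had passed in that group, Junb and Egr1 then still passed, and the share of all tested genes fell from 61.9% to 29.1%. The other 6, Fos, Jun, Nr4a1, Ier2, Btg2 and Zfp36, had adjusted p from 0.0598 to 0.414. Fosb (adjusted p = 0.0416) and Nr4a1 (adjusted p = 0.0205) then passed in tamoxifen males, where the share of all tested genes rose to 10.7%. Without libraries high in Myl7, Egr1 was lost in vehicle females (adjusted p = 0.0872), Jun in vehicle males (adjusted p = 0.0626), and Jun, Junb and Zfp36 in tamoxifen males (adjusted p from 0.104 to 0.243). With the earlier tamoxifen run only, Jun lost its call in tamoxifen females (adjusted p = 0.954, with 3.68% of all tested genes past the test), and Jun, Junb, Egr1 and Zfp36 lost theirs in tamoxifen males (adjusted p from 0.141 to 0.403, with 0.766%). That run alone left 17 tamoxifen female libraries at 11 times, 6 of them with 2 libraries, and 12 male libraries at 10 times, 2 of them with 2. So Jun no longer passed in all 4 groups when any of these sets was left out, though it did without Tam_F_ct54_559 alone. Whether the smaller number of libraries ended these calls was not tested.

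The numbers at the end of the tamoxifen titles form an earlier and a later run, the later with 7 female and 12 male libraries, and what they mark is not stated. With a term for the later run, all 9 genes were fitted as lower in it but none passed (7.23% of all tested genes did), and 4 (Jun, Nr4a1, Ier2 and Zfp36) had an unadjusted p under 0.05. The largest difference was Nr4a1 with -0.66 ± 0.28 log2 (adjusted p = 0.139). In the 13 pairs that join the runs, all 9 genes were higher in the library of the earlier run in 5 pairs and in that of the later run in 0, and most of the 9 were higher in the earlier run in 10 pairs. In tamoxifen females the median pair difference was larger in the 5 pairs that join the runs than in the 7 that do not for 8 of the 9 genes, with 1.75 against 1.07 log2 units for Nr4a1, 0.50 against 0.18 for Btg2, 0.62 against 0.35 for Egr1 and 1.21 against 1.13 for Fos. In tamoxifen males, with 8 and 4 such pairs, it was larger for 6 of the 9, with 1.13 against 0.68 for Nr4a1 and 0.38 against 0.66 for Egr1. These differences were not tested.

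Other genes of the class were read from a list of 56, of which 52 were tested. In tamoxifen minus vehicle, 6 rose and 4 fell in females, and 10 rose and 25 fell in males, where 27.5% and 70.0% of all tested genes passed. Of all tested genes 15.2% were higher and 12.3% lower in females, and 32.2% and 37.8% in males. In males 4 rose and 12 fell without the 10 TEC-high vehicle males (42.2% of all tested genes), and with the earlier tamoxifen run only 9 rose and 15 fell (58.2%). In the later tamoxifen run itself 11 of the 52 were lower and 0 higher, where 647 of all 15629 tested genes were lower and 483 higher. The largest rises in females were Egr2 (0.65 ± 0.24), a relative of Egr1, Atf3 (0.53 ± 0.16), a stress-responsive factor that pairs with Jun proteins, and Ccn1 (0.42 ± 0.08), a matricellular protein, and those with the largest falls Ier3 (-0.69 ± 0.11), Trib1 (-0.45 ± 0.07) and Ier5 (-0.38 ± 0.09). In males Egr3 (-0.81 ± 0.27), Nfkbiz (-0.56 ± 0.09), a nuclear regulator of NF-kB targets, and Maff (-0.55 ± 0.10) fell furthest, and Srf (0.57 ± 0.08), which encodes the factor that drives the class, Atf3 (0.44 ± 0.16) and Sik1 (0.42 ± 0.13) rose furthest. Atf3 passed as higher in both sexes. In vehicle hearts 18 of the 52 were lower in females and 13 higher, where 68.3% of all tested genes passed (36.5% lower and 31.8% higher). Without the 10 TEC-high males 12 were lower and 3 higher, where 46.7% of all tested genes passed. With all libraries Egr3 (-0.69 ± 0.26), Egr2 (-0.63 ± 0.25) and Nfkbiz (-0.60 ± 0.09) were the furthest lower. Srf (0.57 ± 0.08), Dusp5 (0.48 ± 0.09) and Sik1 (0.34 ± 0.13) were the furthest higher. In tamoxifen hearts 0 of the 52 passed between the sexes, against 7.68% of all tested genes. The list's median was -0.09 in vehicle hearts and 0.05 in tamoxifen hearts, where all tested genes had -0.03 and 0.00. With vehicle a rhythm passed in 33 of the 52 in females and 31 in males, and with tamoxifen in 10 and 12, against 34.5%, 55.2%, 17.1% and 8.03% of all tested genes. Leaving out the 10 TEC-high vehicle males gave 13 in vehicle males (18.6% of all tested genes) and 17 in tamoxifen females (24.5%), and with the earlier tamoxifen run only the tamoxifen counts were 7 in females (10.3%) and 4 in males (1.31%). Without libraries high in Myl7 the tamoxifen male count was 8 (4.97%).

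The signalling genes upstream, 28 kinases, coactivators and promoter-bound factors, were all tested. In tamoxifen minus vehicle, 4 rose and 4 fell in females, and 17 rose and 8 fell in males, against 27.5% and 70.0% of all tested genes. By direction these shares were 15.2% higher and 12.3% lower in females, and 32.2% and 37.8% in males. In males 12 rose and 1 fell without the 10 TEC-high vehicle males (42.2%). In females none fell without libraries high in Myl7, and 4 still rose (21.8%), while with the earlier tamoxifen run only 2 rose and 3 fell (19.3%). Mapkapk2 rose by 0.45 ± 0.08 log2 in males and Map2k1 (MEK1) by 0.44 ± 0.04, while Elk3, a ternary complex factor, fell by 0.35 ± 0.06, Crtc2, a CREB coactivator, by 0.25 ± 0.05 and Mapk3 (ERK1) by 0.23 ± 0.04. In females the changes were smaller, from -0.20 ± 0.06 for Mrtfb to 0.18 ± 0.04 for Mapk14 (p38). Creb1, which encodes CREB, differed by -0.15 ± 0.05 log2 in females (adjusted p = 0.0142). In vehicle hearts 15 of the 28 were higher and 7 lower in females, where 68.3% of all tested genes passed (31.8% higher and 36.5% lower). Between the sexes in tamoxifen hearts 0 of the 28 passed, against 7.68% of all tested genes. The vehicle counts without the 10 TEC-high males were 16 higher and 2 lower, where 46.7% of all tested genes passed. Against the 9 genes over the 48 pairs, the summed pattern of these 28 had a correlation of -0.07. The comparisons above share vehicle or tamoxifen libraries, so their errors are shared as well.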

How the data were processed

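Poly-A RNA of 96 ventricle libraries was sequenced (RNeasy extraction, Illumina mRNA Prep, Illumina NovaSeq sequencing, per the labels' protocols). The authors' deposited table gives whole-number counts for each gene, with no normalisation. The submitters' processing notes name HISAT2, Picard and HTSeq and the builds GRCm38 and mm10; no versions, strand setting or annotation are stated. Every column matched 1 library title, and 0 were left over. Each library was grouped by the sex and treatment in its title and by its ct label. Within the 48 pairs, the mean chi-square per gene ran from 3.86 to 99.6, above sampling noise, so no library was treated as a duplicate.

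Genes were kept by filterByExpr (minimum count 10), which left 15629, scaled by TMM and fitted in edgeR 4.0.16 (R 4.3.3) by quasi-likelihood with a mean, cosine and sine at 24 h for each group (12 coefficients, 84 residual degrees of freedom), or with 1 mean for each group and time (48 and 48). Pair scatter was tested with limma 3.58.1. P-values were adjusted by Benjamini-Hochberg over all tested genes, with calls under 0.05. Alternatives were DESeq2 1.42.0, other scalings, no filter, and leaving out libraries or times. Without the filter the dispersion could not be estimated over all genes, so the trend of the filtered genes was carried over. The fits were tested on simulated counts in which every gene had the same dispersion. Of genes changed 1.3-fold in the mean, 97% were recovered in the comparison of tamoxifen with vehicle females over 15629 genes. That share does not describe noisier genes such as Fos, Nr4a1 and Egr1. Their SE in this comparison was 0.30, 0.27 and 0.22 log2. Libraries held 8944955 to 20596194 counts. Coordinates and exon lengths come from GENCODE M21 on GRCm38, which held 54486 of the 55376 symbols. Named genes are every member, in each list the 3 highest and 3 lowest called log2 changes of a comparison, and the 10 genes outside the set most alike over the 48 pair differences. A gene that this rule names in the upstream list is not reported here. The members and lists were chosen with earlier results of these data known.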

Additional observations from a re-analysis of the deposited data

Results flagged for a closer look

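Tamoxifen minus vehicle differed in size or direction between the 2 sexes for 4 of the 9 genes, by the interaction term of the edgeR quasi-likelihood fit. As stated at the opening, this cannot be told apart from a difference between the title-number series. Of all tested genes 52.3% passed the same test, so the share among the 9 was not above that of genes in general. For Egr1 the interaction was 0.82 ± 0.30 log2, from 0.46 ± 0.22 in females and -0.36 ± 0.21 in males, neither of which passed by itself. For Ier2 it was 0.63 ± 0.13, from 0.10 ± 0.10 in females and -0.52 ± 0.09 in males. For Junb it was 0.53 ± 0.16, from 0.08 ± 0.11 in females and -0.45 ± 0.11 in males. For Jun it was -0.26 ± 0.11, from 0.03 ± 0.08 in females and 0.29 ± 0.08 in males. In all 4 genes the vehicle sexes differed past the test, and the tamoxifen sexes, with differences from -0.06 to 0.02 log2, did not. Without the 10 TEC-high vehicle males, Ier2 alone of these 4 still passed, and 28.6% of all tested genes did. With the earlier tamoxifen run only, Ier2 alone passed again (Egr1 0.49, Junb 0.31, Jun -0.21), and 35.1% of all tested genes did.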

How the results depend on the processing

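Of 48 member results past the test, 33 were run under 18 to 21 alternatives, and 8 of those stayed past it under all of them. The other 15, from the test over 12 times, were run under 6 (other scalings and leaving out libraries, not single times), and 3 stayed past it. Of the 48, 23 lost their call without the 10 TEC-high vehicle males. No called mean difference or pair scatter value changed sign. Rhythm amplitudes and the statistic of the test over 12 times are never negative, so they could not change sign. Of 115 member values past the test under no setting, which include amplitudes and such statistics, 34 changed sign under some.

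The percentages here are shares of all tested genes past the test. Without the 10 TEC-high vehicle males they were 42.2% for tamoxifen in males, 12.1% for sex with tamoxifen, 28.6% for the interaction, 18.6% and 12.8% for rhythms in vehicle and tamoxifen males, 29.1%, 15.97% and 10.7% for the test over 12 times in vehicle males, tamoxifen females and tamoxifen males, and 1.51% and 2.56% for the effect on rhythm in females and males. Without pairs that hold them, pair scatter gave 0% for tamoxifen in males and 0.0128% for sex with vehicle. With the earlier tamoxifen run only, sex with tamoxifen gave 3.997%, rhythms 10.3% in tamoxifen females and 1.31% in tamoxifen males, rhythm effects 0.0816% and 0.609%, and the test over 12 times 3.68% and 0.766% in tamoxifen females and males. Without libraries high in Myl7, the tamoxifen male rhythm gave 4.97%, the test over 12 times in tamoxifen males 1.95% and rhythm effects 4.21% and 11.4%. Library size as the only scaling gave 0.397% for the rhythm effect in females, and turned higher and lower calls to 1794 and 2395 genes for tamoxifen in females (2381 and 1918 with TMM), 3825 and 7575 in males (5031 and 5905), and 5157 and 3235 for the interaction (4216 and 3965).

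For pair scatter, the absolute difference gave 0.00640% and 14.7% for tamoxifen in females and males and 0% for sex with tamoxifen, a prior count of 0.5 gave 0% for the last, and without pairs joining the runs these 3 shares were 0%, 0.00640% and 0%. Leaving out each time in turn gave 5.18% to 9.02% for the tamoxifen male rhythm, 0.0962% to 0.365% and 8.65% to 28.2% for rhythm effects in females and males, and for pair scatter 3.45% to 11.95% for tamoxifen in males, 9.06% to 23.5% for sex with vehicle and 0% to 0.0128% for sex with tamoxifen. The cause of these shifts was not tested.

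The test over 12 times was also fitted without the low-count filter, over 36090 genes, and that fit was discarded after its values were seen. Its prior degrees of freedom were infinite (6.13 with the filter), so no gene's own spread entered the test. It would have called 8 or 9 of the 9 genes in every group. No paired analysis was possible because the title numbers are shared by no 2 groups. Fosb, with 1 to 52 counts, is the gene most limited by depth.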
